A study of Daphnia pulicaria with 8 samples.

Results

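The genes described here are 8 carbohydrate enzymes of the water flea Daphnia pulicaria, picked by their gene identifiers out of 33069 genes in the deposited table. They are glycogen phosphorylase and phosphoglucomutase-1 (glycogen use), trehalose-phosphate synthase and trehalase (trehalose synthesis and cleavage), and 6-phosphofructokinase, triosephosphate isomerase, glyceraldehyde-3-phosphate dehydrogenase (GAPDH) and pyruvate kinase (glycolysis). All 8 had values above 0 in every library and a mean of at least 1 FPKM, the minimum set for testing.

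RNA was sequenced from whole adults of the Red phenotype and of the Pale phenotype, collected in 4 lakes (Black, Doe, Long and Round), under a study title that concerns hypoxia and metabolism. There was 1 library for each phenotype in each lake, so the Red and Pale groups hold 4 libraries each, and animals were pooled; the labels state 30 animals for each lake and do not say how these were divided between phenotypes. The labels give no age beyond adult, no treatment and no genotype, and they do not say how the phenotypes were scored. In the main fit the spread behind every p-value is that of the Red minus Pale difference among the 4 lakes, moderated by limma with the spread over all genes or isoforms tested. The number of reads is not known; FPKM summed to 543804 to 582444 per library, over 19274 to 21606 genes above 0. In RNA from whole animals, more cells of a type and more RNA per cell cannot be told apart.

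Glycogen is the stored polymer of glucose. Glycogen phosphorylase releases glucose-1-phosphate from its chain ends, and phosphoglucomutase turns this into glucose-6-phosphate, which enters glycolysis without the ATP that hexokinase spends on free glucose. Trehalose is a disaccharide of glucose that serves as a blood sugar in insects; trehalose-phosphate synthase starts its synthesis and trehalase cleaves it to glucose. Glycolysis makes ATP without oxygen, and phosphofructokinase and pyruvate kinase catalyse steps of it that run in 1 direction and are points of control in animals. The words liver and muscle in the names below come from the deposited annotation.

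Of the 8 genes, 7 had a higher mean in Red and 1, trehalase, a lower one. The Red library was higher in 4 of 4 lakes for 5 genes, against a background of 6.57% of the 12865 genes tested, and lower in 4 of 4 lakes for trehalase, against 14.6%. Counts by lake here and below are of FPKM as deposited and were not repeated under other scalings. The Round trehalase pair was nearly level (9.37 FPKM in Red, 9.55 in Pale), and a gap this small can change direction with scaling. None of the 8 passed limma's moderated test after Benjamini-Hochberg adjustment over all genes tested, and 0% of all genes did. At an unadjusted p under 0.05, 5 of the 8 were higher in Red, against 2.89% of all genes, and 0 were lower, against 9.29%. In 3 of the 8, every Red library lay above every Pale library, against 1.62% of all genes. The 8 genes were chosen with earlier results of these data known. Their counts beside the shares over all genes are therefore descriptions and no test of enrichment. The median log2 difference over the 8 genes was 0.48, and it was -0.08 over all genes tested, of which 38.5% were higher in Red. Log2 differences are Red minus Pale on the log2(FPKM + 1) scale, which understates differences of genes near 1 FPKM.

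**Figure D1:**
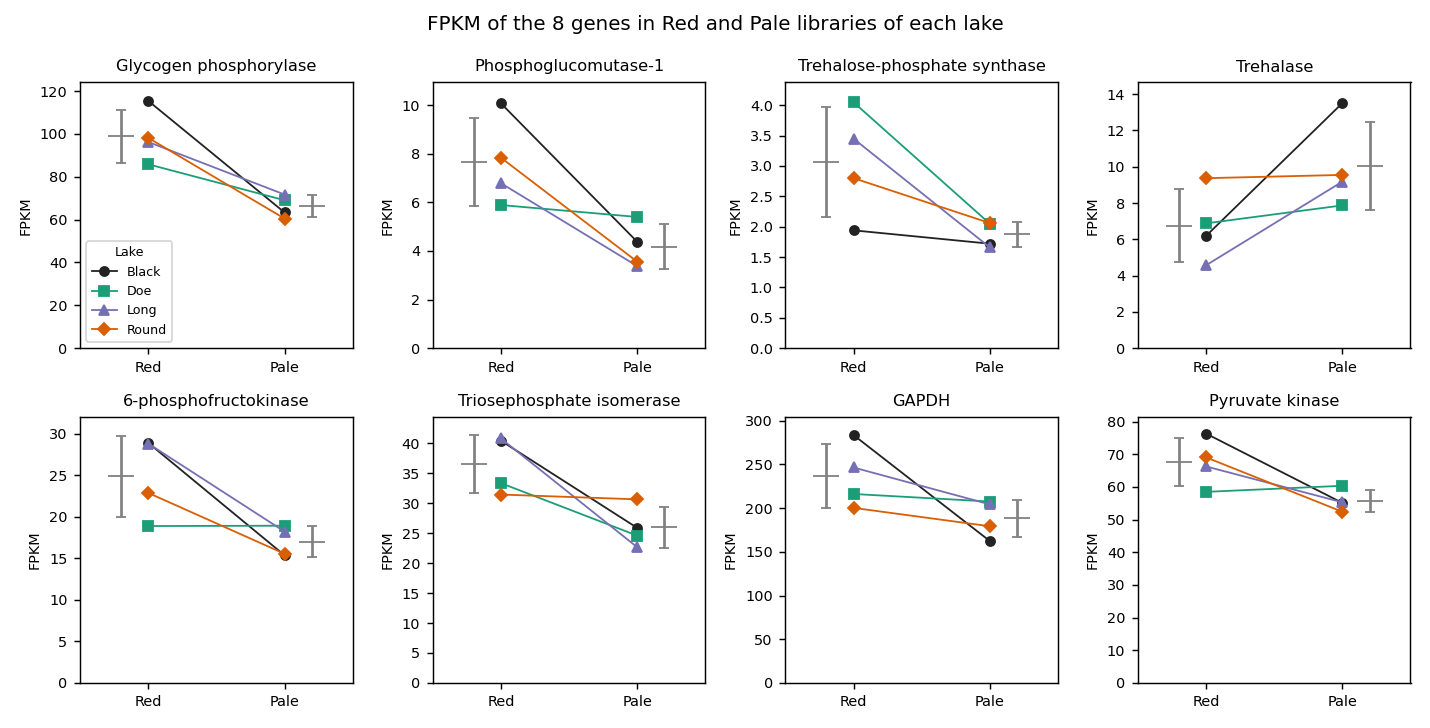
FPKM (vertical axis, from 0) of each of the 8 genes in the Red and Pale library of each lake, joined by a line per lake; grey bars are the mean ± SD over 4 libraries. Every Red point lies above every Pale point for glycogen phosphorylase, phosphoglucomutase-1 and triosephosphate isomerase, and trehalase alone slopes upward towards Pale in all 4 lakes.

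Glycogen phosphorylase, liver form (Daplx7pEVm003141), the enzyme that breaks glycogen down, had 115.4 FPKM (Black), 85.8 (Doe), 96.2 (Long) and 98.1 (Round) in Red animals, against 63.3 (Black), 69.0 (Doe), 71.7 (Long) and 60.5 (Round) in Pale animals. The groups did not overlap, and the lowest Red library (Doe) was above the highest Pale library (Long). The means were 98.9 ± 12.3 FPKM in Red and 66.1 ± 5.14 in Pale (SD, n = 4 each), a log2 difference of 0.57 ± 0.15 (SE; limma, unadjusted p = 0.0104, adjusted p = 0.309). Its 95% interval ran from 0.19 to 0.94. This was among the more abundant transcripts of the animal, at the 96.6th percentile of mean FPKM over the genes tested. A second gene of the same name, Daplx7pEVm020470, averaged 0.63 FPKM in Red and 0.87 in Pale and was too low to test, so nearly all phosphorylase transcript came from the first.

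Phosphoglucomutase-1 (Daplx7pEVm006332), which links glucose-1-phosphate to glucose-6-phosphate, had 10.1 FPKM (Black), 5.89 (Doe), 6.79 (Long) and 7.84 (Round) in Red animals, against 4.38, 5.40, 3.38 and 3.56 in Pale animals of the same lakes. It had the largest log2 difference of the 8, 0.73 ± 0.19 (SE, unadjusted p = 0.0105, adjusted p = 0.309 in limma), with means of 7.65 ± 1.81 FPKM in Red and 4.18 ± 0.92 in Pale (SD, n = 4 each). The Red library was at least 2.01 times the Pale one in Black, Long and Round and 1.09 times in Doe. The groups did not overlap, although Doe Red and Doe Pale lay side by side at the boundary. Of the other genes with this name, Daplx7pEVm009523 averaged 1.90 FPKM in Red and 1.26 in Pale, Daplx7pEVm013009 averaged 1.61 and 0.98, and the rest had means under 1 FPKM. Reads from such copies can be split between them in counting, so the sum over copies is surer than any 1 of them.

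The other glycogen genes differed less. Of 23 genes named for glycogen metabolism, 14 were tested, the enzymes above among them; 10 were higher and 4 lower in Red, 3 and 0 of them at an unadjusted p under 0.05, and the list median was 0.20. The third was phosphatase 1 regulatory subunit 3E (Daplx7pEVm003625), a subunit that brings protein phosphatase 1 to glycogen, with 13.1 ± 2.03 FPKM in Red and 9.89 ± 1.15 in Pale (log2 difference 0.37, unadjusted p = 0.0406, higher in 4 of 4 lakes). Glycogenin-1 (Daplx7pEVm009699), the primer of new glycogen, had 41.5 ± 2.44 and 35.03 ± 4.35 FPKM in Red and Pale, again with Red higher in 4 of 4 lakes and an unadjusted p = 0.121. Glycogen synthase (Daplx7pEVm005047), which extends the chain, had 22.1 ± 4.10 FPKM in Red and 20.1 ± 1.58 in Pale and an unadjusted p = 0.438. The phosphorylase b kinase subunits, which activate phosphorylase, had log2 differences between -0.20 and -0.09; the smallest of these was 0.00 with quantile normalization.

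Trehalose-phosphate synthase (Daplx7pEVm003790) had 1.94 FPKM (Black), 4.05 (Doe), 3.45 (Long) and 2.80 (Round) in Red animals, against 1.72, 2.05, 1.66 and 2.06 in Pale animals of the same lakes. Red was higher within each lake, but Black Red lay inside the Pale range, so the groups overlapped. The log2 difference was 0.47 ± 0.17 (SE, unadjusted p = 0.0347, adjusted p = 0.373 in limma), with means of 3.06 ± 0.90 FPKM in Red and 1.87 ± 0.21 in Pale (SD, n = 4 each). It was the lowest of the 8 genes by level, at the 29.8th percentile. The other genes named as this enzyme, Daplx7pEVm003224 and Daplx7pEVm003724, had means of 0.26 and 0.57 FPKM in Red and 0.64 and 0.83 in Pale.

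Trehalase (Daplx7pEVm007119) had 6.19 FPKM (Black), 6.88 (Doe), 4.57 (Long) and 9.37 (Round) in Red animals, against 13.5, 7.87, 9.18 and 9.55 in Pale animals of the same lakes. The gap was wide in Black and Long, where Red had 0.458 and 0.498 of the Pale level, and small in Doe and Round, with 0.874 and 0.981. The log2 difference was -0.52 ± 0.22 (SE, unadjusted p = 0.0556, adjusted p = 0.416 in limma), with a 95% interval of -1.06 to 0.02. Means were 6.75 ± 1.996 FPKM in Red and 10.03 ± 2.43 in Pale (SD, n = 4 each), and the groups overlapped. A second gene annotated alpha,alpha-trehalase (Daplx7pEVm006325) was also lower in Red in 4 of 4 lakes, with 3.84 ± 1.08 and 4.595 ± 1.35 FPKM in Red and Pale (log2 difference -0.21, unadjusted p = 0.177). The gene named acid trehalase (Daplx7pEVm003542) had 9.85 ± 3.89 FPKM in Red and 8.19 ± 2.17 in Pale and was higher in Red only in Long among the 4 lakes.

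Of 8 genes named for trehalose, 5 were tested; 2 were higher and 3 lower in Red, the synthase was the 1 past an unadjusted p of 0.05, and the list median was -0.21. The fifth, the facilitated trehalose transporter Tret1-2 (Daplx7pEVm005871), had 1.67 ± 1.22 FPKM in Red and 2.27 ± 1.58 in Pale.

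6-phosphofructokinase, muscle type (Daplx7pEVm003406), the enzyme that commits hexose phosphate to glycolysis, had 28.9 FPKM (Black), 18.9 (Doe), 28.8 (Long) and 22.9 (Round) in Red animals, against 15.4, 18.9, 18.2 and 15.5 in Pale animals of the same lakes. The Doe libraries were level, at 18.88 FPKM in Red and 18.92 in Pale, and the Red library was 1.47 to 1.88 times the Pale one in the other lakes. Doe Red, the lowest Red library, was the only one inside the Pale range. The log2 difference was 0.51 ± 0.18 (SE, unadjusted p = 0.0337, adjusted p = 0.373 in limma), with means of 24.9 ± 4.88 FPKM in Red and 17.0 ± 1.83 in Pale (SD, n = 4 each).

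Triosephosphate isomerase 1a (Daplx7pEVm017102), which interconverts the triose phosphates that aldolase makes, had 40.5 FPKM (Black), 33.4 (Doe), 40.8 (Long) and 31.5 (Round) in Red animals, against 25.9, 24.6, 22.7 and 30.7 in Pale animals of the same lakes. No Red value fell below a Pale one, with the Round pair at the boundary. The log2 difference was 0.48 ± 0.17 (SE, unadjusted p = 0.0354, adjusted p = 0.377 in limma), with means of 36.5 ± 4.82 FPKM in Red and 25.96 ± 3.404 in Pale (SD, n = 4 each).

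GAPDH (Daplx7pEVm010997), the step of glycolysis that forms NADH, was the most abundant of the 8, with 283.7 FPKM (Black), 216.2 (Doe), 246.6 (Long) and 200.3 (Round) in Red animals, against 162.4, 207.6, 204.4 and 179.3 in Pale animals of the same lakes. Red was higher within every lake, but Round Red lay below Doe Pale and Long Pale. The log2 difference was 0.32 ± 0.17 (SE, unadjusted p = 0.104, adjusted p = 0.497 in limma), with means of 237 ± 36.7 FPKM in Red and 188 ± 21.5 in Pale (SD, n = 4 each); it was 0.80 in Black and at most 0.27 in any other lake, and 0.16 without the Black pair. Pyruvate kinase muscle isozyme (Daplx7pEVm006933), the last step of glycolysis, had 76.3 FPKM (Black), 58.5 (Doe), 66.3 (Long) and 69.1 (Round) in Red animals, against 55.1, 60.4, 55.3 and 52.4 in Pale animals of the same lakes. It was higher in Red in 3 of 4 lakes, and Doe Red was below Doe Pale. Its log2 difference was 0.27 ± 0.15 (SE, unadjusted p = 0.121, adjusted p = 0.519 in limma), the smallest of the 8, with means of 67.6 ± 7.37 FPKM in Red and 55.8 ± 3.32 in Pale (SD, n = 4 each).

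**Figure D2:**
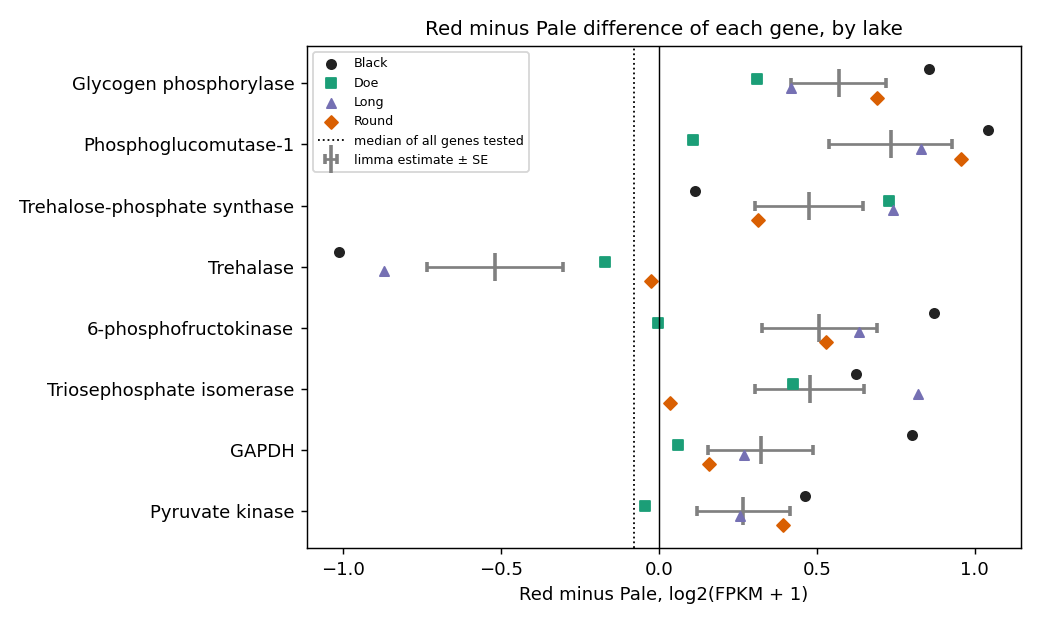
Red minus Pale difference of each gene on the log2(FPKM + 1) scale (horizontal axis); symbols are lakes, grey bars the limma estimate ± SE, and the dotted line the median of all genes tested (-0.08). Black lies farthest from 0 in 6 of the 8 genes, and Doe lies nearest 0 in 5.

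The size of the difference varied by lake. Black gave the largest absolute difference in 6 of the 8 genes and Long in the other 2, and Doe gave the smallest in 5; over all genes tested Black was the largest in 25.2% and Doe the smallest in 26.4%. The median difference of the 8 genes was 0.71 for Black, 0.53 for Long, 0.35 for Round and 0.08 for Doe, beside medians over all genes tested of -0.19, -0.07, -0.03 and -0.02 in the same order of lakes. The Black Red library was read more deeply than the rest, 1.87 times Black Pale as judged from the steps in low FPKM values, where the other libraries ran from 0.91 to 1.13 times; the part of this in the Black differences was not tested. Without the Black pair the unadjusted count of 5 was 3, without Long it was 2, and without Doe or Round it was 3. A limma F test between lakes, over both phenotypes, gave an adjusted p of 0.753 to 0.97 for the 8 genes and called 0% of all genes, 0 of 12865. Levels varied more between Red than between Pale libraries in 7 of the 8 genes by SD, where 43.4% of all genes had the larger SD in Red. These 7 are also the genes with the higher mean in Red, and an SD in FPKM is not scaled to the mean.

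Of 14 genes named for glycolysis, 13 were tested, with 10 higher and 3 lower in Red and a list median of 0.25, which was 0.12 without the Black pair. The list was drawn by enzyme name and lacks the gene named eno (Daplx7pEVm009281), which was higher in Red in 4 of 4 lakes (129.8 ± 7.79 FPKM in Red and 103.6 ± 9.56 in Pale). At an unadjusted p under 0.05, 3 were higher and 1 was lower. Besides 6-phosphofructokinase and triosephosphate isomerase the third was aldolase C (Daplx7pEVm008346), which splits fructose-1,6-bisphosphate, with 243 ± 66.0 FPKM in Red and 161 ± 30.8 in Pale (log2 difference 0.57, unadjusted p = 0.0343); it was lower in Red in Doe. The gene that was lower encodes a 6-phosphofructo-2-kinase/fructose-2,6-bisphosphatase (Daplx7pEVm011561), which makes and removes the activator of phosphofructokinase. It had 13.5, 13.1, 11.8 and 16.7 FPKM in Black, Doe, Long and Round Red animals, against 21.2, 16.3, 22.3 and 20.9 in Pale animals, and was lower in Red in 4 of 4 lakes (log2 difference -0.52, unadjusted p = 0.0179, adjusted p = 0.333 in limma; unadjusted p = 0.0553 with quantile normalization). Its other annotated copies, Daplx7pEVm005635 and Daplx7pEVm009899, had log2 differences of 0.06 and 0.09. Hexokinase-1 (Daplx7pEVm007854), which phosphorylates free glucose, had 20.3 ± 3.09 FPKM in Red and 25.4 ± 6.85 in Pale (log2 difference -0.29, unadjusted p = 0.233).

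Enzymes of the opposite route, from pyruvate back to glucose, were split. Of 7 genes named for gluconeogenesis, 6 were tested, 3 higher and 3 lower in Red, with 2 and 1 past an unadjusted p of 0.05 and a list median of -0.09 that was 0.07 with quantile normalization, 0.00 without the most abundant gene and 0.02 without the Doe pair. Mitochondrial pyruvate carboxylase (Daplx7pEVm001692), which makes oxaloacetate from pyruvate, had 36.6, 18.9, 34.98 and 25.5 FPKM in Black, Doe, Long and Round Red animals, against 17.8, 17.6, 11.6 and 12.4 in Pale animals, a log2 difference of 0.90 ± 0.25 (SE, unadjusted p = 0.012, adjusted p = 0.315 in limma). Every Red library lay above every Pale library. Fructose-1,6-bisphosphatase (Daplx7pEVm011292), which reverses the phosphofructokinase step, had 23.2 ± 4.33 FPKM in Red and 15.95 ± 2.22 in Pale, also without overlap (log2 difference 0.50, unadjusted p = 0.0266). The most abundant glucose-6-phosphatase (Daplx7pEVm009778), which frees glucose at the end of the route, had 38.7 ± 9.91 FPKM in Red and 75.1 ± 27.4 in Pale, lower in Red in Black, Doe and Long and higher in Round (log2 difference -0.90, unadjusted p = 0.0277; not under 0.05 with quantile normalization or without the most abundant gene). The glucose-6-phosphatase Daplx7pEVm010509 had 36.0 ± 14.1 and 63.4 ± 33.6 FPKM in Red and Pale, with the same lakes lower (unadjusted p = 0.126).

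Genes by which pyruvate enters the mitochondrion and is oxidised, and those of the pentose phosphate branch, had medians close to that of all genes. Of 15 genes named for pyruvate entry 13 were tested, 3 higher and 10 lower in Red, with 0 and 2 past an unadjusted p of 0.05 and a median of -0.08 that was 0.01, 0.06 and 0.02 with size factors, with quantile normalization and without the most abundant gene. Both of the last were mitochondrial pyruvate carriers. Daplx7pEVm024453 had 17.2 ± 0.61 FPKM in Red and 22.0 ± 2.05 in Pale, lower in Red in 4 of 4 lakes (unadjusted p = 0.0485), but its unadjusted p was 0.127 with size factors, 0.298 with quantile normalization and 0.154 without the most abundant gene. Daplx7pEVm022266, named after its values were seen, had 0.73 ± 0.68 and 2.12 ± 0.86 FPKM in Red and Pale and was equal in Round; it met the minimum of 1 FPKM only through Pale, so 1 of the 2 lower genes met it in both phenotypes. Pyruvate dehydrogenase E1 alpha (Daplx7pEVm010138) had 30.7 ± 3.34 and 31.9 ± 3.60 FPKM in Red and Pale. All 9 pentose phosphate genes were tested and had a lower mean log2 value in Red, though only 5, 3 and 5 of them did under those 3 scalings; 0 had an unadjusted p under 0.05, and the median was -0.11, or 0.06 with quantile normalization, -0.06 without Black and -0.22 without Doe. Within this list, transketolase (Daplx7pEVm005800), the most abundant, had 55.2 ± 8.64 and 58.0 ± 4.40 FPKM in Red and Pale.

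**Figure D3:**
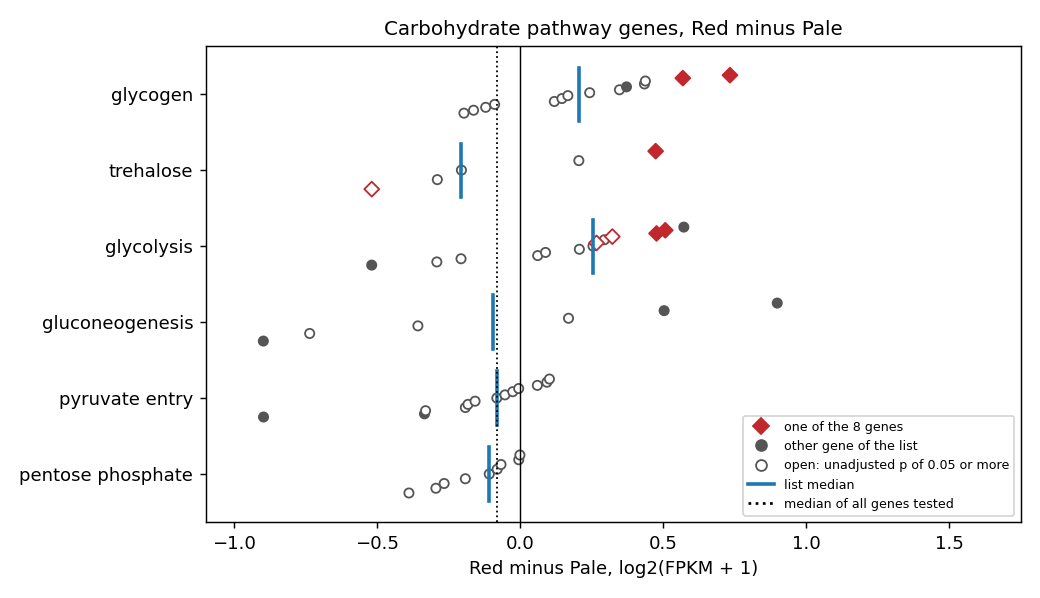
Red minus Pale difference on the log2(FPKM + 1) scale (horizontal axis) of every tested gene in 6 carbohydrate lists; diamonds are the 8 genes, filled symbols have an unadjusted p under 0.05, blue lines are list medians and the dotted line the median of all genes tested. The list medians run from -0.21 for trehalose to 0.25 for glycolysis, and the 8 genes other than trehalase lie at or right of their list's median.

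These directions depend partly on how libraries are scaled. The most abundant gene holds 41.0% to 48.1% of each library's FPKM, and its part in this was not tested beyond leaving it out. The median of all genes tested moved by 0.07 with size factors, by 0.10 with quantile normalization and by 0.08 when that gene was left out. The log2 differences of the 8 genes over all lakes kept their signs under each of these. Signs within single lakes were not computed under them. The median of the 8 genes above that of all genes was 0.56, 0.56, 0.59 and 0.56 in the main fit and those 3 scalings. With quantile normalization the glycogen median was 0.37 and the glycolysis median 0.44. Over all genes, 372 were higher and 1195 lower in Red at an unadjusted p under 0.05 in the main fit, 800 and 676 with quantile normalization, and 640 and 718 without the most abundant gene.

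Ratios of opposing enzymes within a library are free of library scaling. Glycogen phosphorylase over glycogen synthase was 4.23 (Black), 4.95 (Doe), 4.29 (Long) and 4.61 (Round) in Red animals, against 2.83, 3.54, 3.83 and 3.08 in Pale animals, a mean log2 difference of 0.45 (SD 0.20, n = 4 lakes) with Red higher in all 4. Trehalose-phosphate synthase over trehalase was 0.313, 0.589, 0.755 and 0.299 in Black, Doe, Long and Round Red animals, against 0.127, 0.260, 0.181 and 0.216 in Pale animals, a mean log2 difference of 1.25 (SD 0.65, n = 4 lakes), again with Red higher in all 4. The direction of the second ratio follows from its parts in FPKM as deposited. There this synthase gene was higher and this trehalase gene lower in Red in every lake. Other genes of these names were left out, and a ratio of sums over copies was not computed. In Long, the synthases Daplx7pEVm003224 (0 FPKM in Red, 2.25 in Pale) and Daplx7pEVm003724 (0.26 and 0.85) went against that direction. So did acid trehalase there (15.27 in Red, 6.05 in Pale), while the trehalase Daplx7pEVm006325 (2.88 and 3.19) went with it. For both ratios every Red library lay above every Pale library; how often ratios of other gene pairs separate in this way was not computed. In Doe the log2 differences of the ratios were 0.49 and 1.18, and the synthase alone was 1.98 times higher in Doe Red than in Doe Pale. 6-phosphofructokinase over fructose-1,6-bisphosphatase ran from 0.974 to 1.16 in Red and from 0.966 to 1.15 in Pale, with Red higher in 2 of 4 lakes. Pyruvate kinase over cytosolic phosphoenolpyruvate carboxykinase (Daplx7pEVm005631), the enzyme that bypasses it in the other direction, ran from 1.42 to 2.60 in Red and from 1.15 to 1.83 in Pale, also with Red higher in 2 of 4 lakes. With 4 lakes an exact two-sided sign-flip test cannot give a p below 0.125, so these ratios are descriptions.

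**Figure D4:**
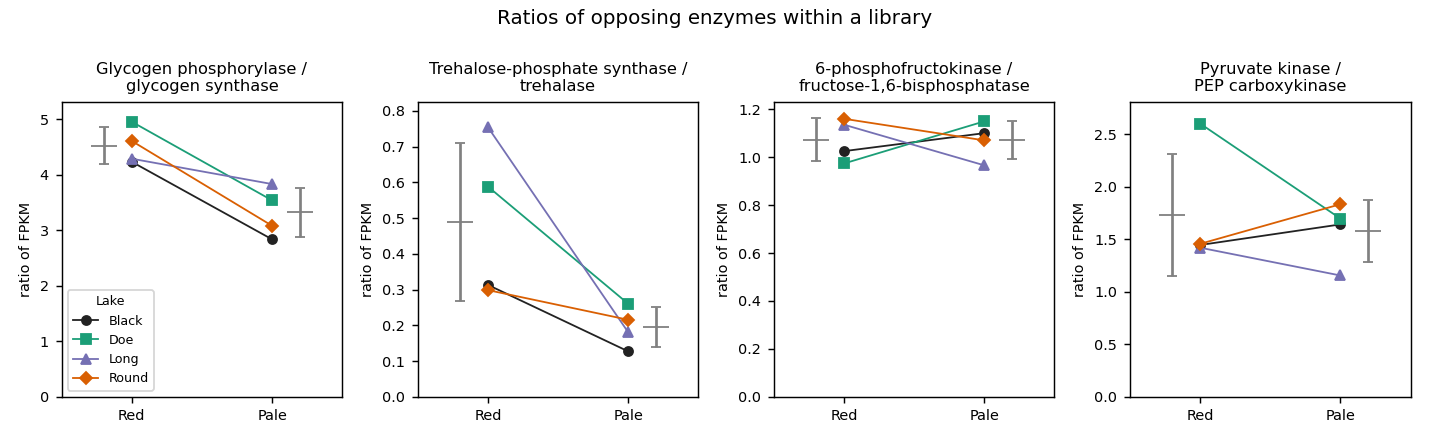
Ratio of the FPKM of opposing enzymes, each by a single gene (vertical axis, from 0), in the Red and Pale library of each lake. Grey bars are the mean ± SD over 4 libraries. The first 2 ratios are higher in Red in every lake, with no overlap for phosphorylase over synthase (4.23 to 4.95 in Red, 2.83 to 3.83 in Pale), and the other 2 cross.

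The 8 genes have 70 isoforms in the deposited isoform table, of which 29 had a mean of at least 1 FPKM. Of these 29, 25 were higher and 4, all of trehalase, lower in Red; with size factors or quantile normalization 26 were higher and 3, again of trehalase, lower. None passed limma after adjustment over 23583 isoforms, where 0.00424% of all isoforms did. At an unadjusted p under 0.05, 7 were higher, against 2.47% of all isoforms, and 1 was lower, against 7.05%. Phosphoglucomutase-1 t3 and glycogen phosphorylase t3, both among the 7, averaged under 1 FPKM in Pale and met the minimum only through their Red level, so they had to differ; 5 higher isoforms met it in both phenotypes. Trehalase t5 likewise met it only through Pale. These counts over tested isoforms are descriptions and support nothing further. Isoforms of 1 gene share reads, so they are not separate measurements of it.

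Glycogen phosphorylase was carried by isoforms t6 and t4, which together held 89.2% to 94.2% of the gene in each library. Isoform t6 averaged 47.5 FPKM in Red and 35.3 in Pale (log2 difference 0.43, unadjusted p = 0.059), and t4 averaged 41.8 and 25.3 (0.70, unadjusted p = 0.0239). The minor isoforms t7 and t3 averaged 4.10 and 1.90 FPKM in Red and 2.14 and 0.79 in Pale, with a log2 difference of 0.71 for t7; t3 is given by its levels alone, since it met the minimum only through Red. Phosphoglucomutase-1 t4 averaged 3.23 FPKM in Red and 1.96 in Pale. Its isoform t3 had 3.28, 1.44, 1.67 and 1.18 FPKM in Black, Doe, Long and Round Red animals, against 0.33 and 1.43 in Black and Doe Pale animals, and was listed at 0 in Long and Round Pale animals.

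Trehalase had 4 tested isoforms, and differences between them were not tested. Isoform t4 averaged 2.64 FPKM in Red and 2.78 in Pale (log2 difference -0.03, unadjusted p = 0.904). Isoform t3 had 1.71, 0.77 and 2.01 FPKM in Black, Long and Round Red animals and was listed at 0 in Doe Red, against 4.93, 3.18, 3.18 and 1.30 in Black, Doe, Long and Round Pale animals (log2 difference -1.01, unadjusted p = 0.0451, adjusted p = 0.515 in limma); its unadjusted p was not under 0.05 with size factors or quantile normalization. It was lower in Red in Black, Doe and Long and higher in Round. Isoforms t2 and t5 averaged 1.36 and 0.94 FPKM in Red and 1.46 and 1.63 in Pale.

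Of 30 isoforms listed for 6-phosphofructokinase, 8 were at 0 in every library and 4 were tested. Isoform t28 averaged 6.89 FPKM in Red and 5.75 in Pale (log2 difference 0.21, unadjusted p = 0.376). Isoform t3 had 8.00, 6.95, 7.23 and 6.68 FPKM in Black, Doe, Long and Round Red animals, against 5.05, 3.74, 4.42 and 2.32 in Pale animals (log2 difference 0.78, unadjusted p = 0.00825, adjusted p = 0.411 in limma). It was higher in Red in Doe as well, where the gene as a whole was level. Triosephosphate isomerase t4 and t3, its most abundant isoforms, each averaged 13.6 FPKM in Red, against 11.7 and 8.71 in Pale; t1, the least abundant, averaged 3.62 and 1.65 FPKM in Red and Pale (log2 difference 1.07, unadjusted p = 0.0109) and was listed at 0 in Black and Doe Pale animals. The leading isoforms of the GAPDH gene, t1 and t4, averaged 82.7 and 80.9 FPKM in Red and 68.1 and 62.4 in Pale. In the deposited annotation t1 is named testis-specific GAPDH, and t4 is named uncharacterized protein. Pyruvate kinase t6, about 80.3% of the gene in Red and 80.9% in Pale, averaged 54.3 and 45.1 FPKM; the minor isoform t2 averaged 3.405 and 2.04 FPKM in Red and Pale (log2 difference 0.55, unadjusted p = 0.0389).

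**Figure D5:**
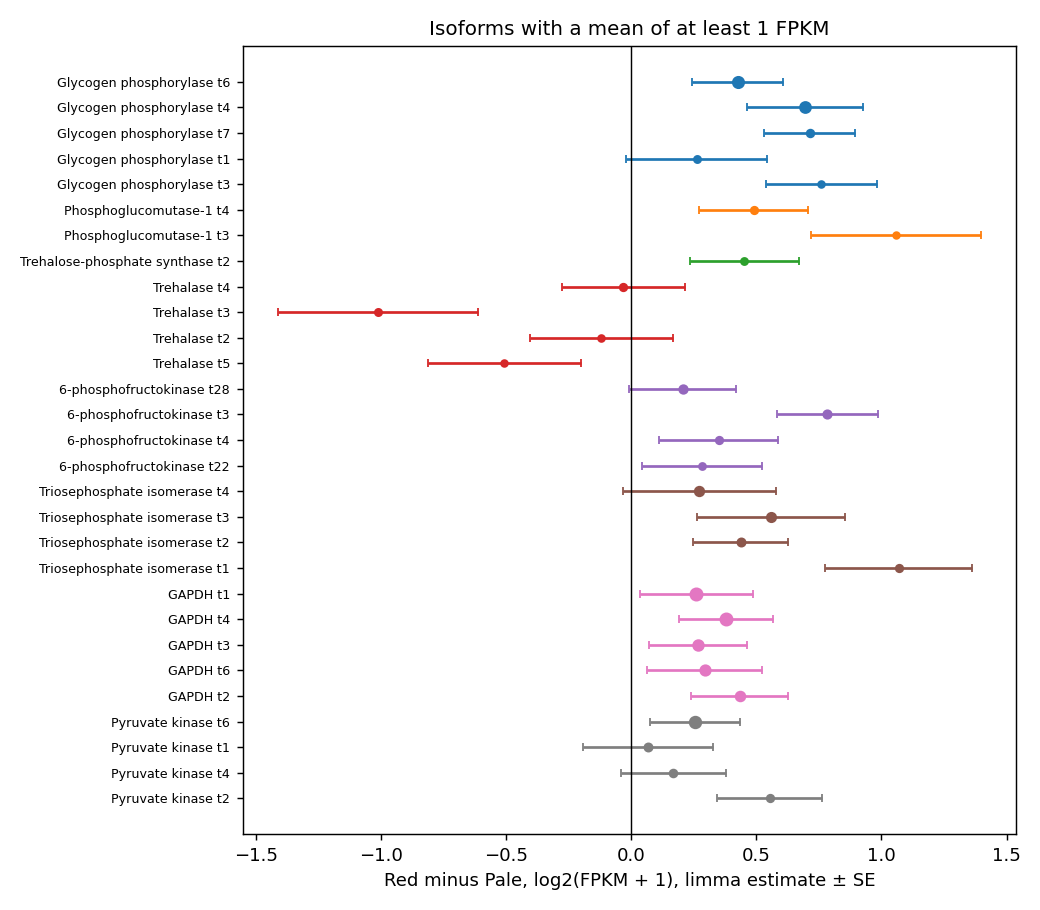
Limma estimate ± SE of the Red minus Pale difference on the log2(FPKM + 1) scale (horizontal axis) for the 29 isoforms with a mean of at least 1 FPKM, coloured by gene, with larger points for more abundant isoforms. The 4 trehalase isoforms lie left of 0 (3 of them with size factors or quantile normalization) and the other 25 right of it.

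The 6 glycogen and glycolysis genes varied together over the libraries: their 15 pairwise Pearson correlations of log2(FPKM + 1) over 8 libraries ran from 0.681 to 0.963. Trehalase correlated with them at -0.869 to -0.560 and trehalose-phosphate synthase at 0.237 to 0.573. These values share the libraries, their scaling and the phenotype difference, and are descriptions. The named genes whose pattern over the 8 libraries was most like that of glycogen phosphorylase were a sodium-dependent phosphate transporter (Daplx7pEVm008533, Pearson correlation 0.971), a ROS kinase (Daplx7pEVm000158, 0.958), L-lactate dehydrogenase A chain (Daplx7pEVm012127, 0.952), the gene named eno (Daplx7pEVm009281, 0.944) and brain mitochondrial carrier protein (Daplx7pEVm015156, 0.944). Lactate dehydrogenase, which turns pyruvate into lactate and so restores the NAD that GAPDH uses, had 92.5, 58.8, 77.7 and 59.8 FPKM in Black, Doe, Long and Round Red animals, against 32.3, 45.2, 42.1 and 38.9 in Pale animals. For trehalase the most alike were cysteine protease ATG4B (Daplx7pEVm009556, 0.983), a fibroblast growth factor receptor (Daplx7pEVm009284, 0.974), a calcium-independent phospholipase A2-gamma (Daplx7pEVm005334, 0.972), a cytosolic carboxypeptidase (Daplx7pEVm018991, 0.963) and sirtuin-2 (Daplx7pEVm012178, 0.963).

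Markers of tissues that make up the whole animal were read in the same libraries. The summed FPKM of 22 muscle genes, 1 of them at 0 in all libraries, was 785 to 1132 in Red and 991 to 1587 in Pale. In FPKM as deposited the sum was lower in Red in 4 of 4 lakes, by little in Round (1131.6 in Red, 1201.5 in Pale). Marker sums were not computed under other scalings. All 13 muscle genes that were tested had a lower mean log2 value in Red, also under the 3 other scalings. Of these, 7 had an unadjusted p under 0.05 in the main fit and 2 to 4 under those scalings. 6-phosphofructokinase and pyruvate kinase carry the word muscle from the deposited annotation and are not among these markers. The summed FPKM of 34 genes of the globin list, which stands for the blood pigment, was 3865 to 5320 in Red and 932 to 3444 in Pale. It was higher in Red in 4 of 4 lakes. Of 27 globin genes tested, 23 had a higher mean log2 value in Red and 4 a lower one, 15 and 3 of them at an unadjusted p under 0.05 in limma. Sums for gut (130 genes, 4733 to 7172 in Red and 5144 to 9384 in Pale), yolk (18 genes, 957 to 2194 and 1351 to 1742), eye (49 genes, 1686 to 2823 and 1351 to 3457) and cuticle (274 genes, 3811 to 9767 and 4099 to 8922) overlapped between Red and Pale. These sums are carried by their abundant genes: the yolk sum was higher in Red in 3 of 4 lakes, while 7 of its 9 tested genes had a lower mean log2 value in Red (list median -0.19, 0 lower and 1 higher at an unadjusted p under 0.05). Of 93 tested gut genes 66 were lower in Red, 18 of them at that level. Of 193 cuticle genes 134 were lower, also 18 at that level. Of 31 eye genes 20 were higher, 5 at that level. Over all genes tested, 7907 of 12865 were lower in Red and 38.5% were higher. At that level 9.29% of all genes were lower and 2.89% higher, and the cuticle count is close to the first of these shares. The part of tissue make-up in the differences of the 8 genes was not tested.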

How the data were processed

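Values are FPKM, fragments scaled to transcript length and library size, as deposited by the authors for 33069 genes and 109737 isoforms in 8 libraries; read depth is unknown. Libraries were ribosomal RNA depleted and directional per the labels' protocols, and reads were trimmed with Trimmomatic per the submitters' processing notes; the aligner, genome build and quantification tool are not given in the sources used here. The deposited log2 ratios per lake are of Pale over Red and were not used. None of the gene identifiers matched the RefSeq gene table (0), so no coordinates or sequences are given.

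Differences were computed from log2(FPKM + 1) where the 8 libraries averaged 1 FPKM or more (12865 genes, 23583 isoforms), with limma 3.58.1 in R 4.3.3: lake as a block, a phenotype term, a mean-variance trend, two-sided tests and Benjamini-Hochberg adjustment over all genes, threshold 0.05. The labels do not say that the pools were repeated, so p-values measure the spread between these libraries. Lake pairs the libraries by design; the deviations of Red and Pale from their means correlated at 0.485 (Black), -0.015 (Doe), -0.021 (Long) and 0.214 (Round). The 8 genes and the pathway and marker lists were chosen with earlier results of these data known. The text names the 8 genes, other genes of the same enzyme name, up to 4 genes per list (first those with an unadjusted p under 0.05 and the same sign in 4 of 4 lakes, then the most abundant), ratio partners, the main isoforms, and the 5 named genes most correlated with glycogen phosphorylase and with trehalase; any further list gene was named after its values were seen. The procedure was tested on simulated data. Alternatives were other scalings, pseudocounts and filters, no trend, no block, and leaving out each lake.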

Additional observations from a re-analysis of the deposited data

Results flagged for a closer look

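In FPKM as deposited, the Doe pair of 2 of the 8 genes differed in the opposite direction to the pairs of the other 3 lakes. The Red minus Pale log2 difference of 6-phosphofructokinase was -0.0029 in Doe, against 0.87 in Black, 0.63 in Long and 0.53 in Round. That of pyruvate kinase was -0.0444 in Doe, against 0.46, 0.26 and 0.39 in Black, Long and Round. With 1 library per lake and phenotype, neither difference between lakes could be tested, and both Doe values are small. Signs within a lake were not computed under other scalings. The Doe 6-phosphofructokinase pair was level (18.88 FPKM in Red, 18.92 in Pale), so its sign can change with scaling. Among the 16 groups of 4 libraries (the Red and the Pale group of each gene), 0 had a library far from the other 3 by Dixon's criterion.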

How the results depend on the processing

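None of the 8 genes changed sign in any alternative, and the lowest adjusted p of any of them was 0.226, for glycogen phosphorylase. Log2 differences ranged from 0.47 to 0.78 for glycogen phosphorylase, 0.46 to 0.94 for phosphoglucomutase-1, 0.22 to 0.64 for trehalose-phosphate synthase, -0.68 to -0.36 for trehalase, 0.39 to 0.68 for 6-phosphofructokinase, 0.36 to 0.68 for triosephosphate isomerase, 0.16 to 0.44 for GAPDH and 0.20 to 0.47 for pyruvate kinase. A minimum mean of 5 FPKM left out trehalose-phosphate synthase, which has no value there. Without the lake as replicate block, 0 genes were called, 5 of the 8 were again higher at an unadjusted p under 0.05, and 321 genes were higher and 999 lower at that level; the block changed no call.

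Genes higher in Red at an unadjusted p under 0.05 numbered 372 in the main fit, 644 with size factors, 800 with quantile normalization, 640 without the most abundant gene, 605 with no filter, 191 with a minimum of 5 FPKM, and 246 to 342 leaving out a lake. Genes lower in Red numbered 1195, 676 with quantile normalization, 718 without the most abundant gene, 735 with a minimum of 5 FPKM, and 745 to 1241 leaving out a lake. Of the 8 genes, 5 were higher at that level, and 2 to 3 when a lake was left out, with fewer libraries. The median of the trehalose list, -0.21, was -0.13 with size factors, -0.11 with quantile normalization, -0.12 without the most abundant gene, -0.25 and -0.12 with pseudocounts of 0.1 and 5, -0.16 with a minimum of 5 FPKM, and -0.27 to -0.13 leaving out a lake. The pyruvate entry median, -0.08, was 0.0075, 0.0635 and 0.0218 under the 3 scalings and -0.16 with a minimum of 5 FPKM, and that of all genes was 0.0225 with quantile normalization and 0.0025 without the most abundant gene. The lake F test called 0 genes, and 1 with a pseudocount of 5. Isoforms called numbered 1, and 0 to 0 leaving out a lake; isoforms higher at the unadjusted level numbered 582, 1056 with quantile normalization, 922 with size factors, 183 at a minimum of 5 FPKM, and 430 to 540 leaving out a lake. The cause was not tested, beyond the changed scaling, filter or number of libraries itself. Read depth is unknown, so no limit set by counting error can be given.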
